A study of Drosophila melanogaster with 28 samples.

Results

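The genes that encode poly(A)-binding proteins and the machinery of cytoplasmic polyadenylation were followed through the first 5 hr of *Drosophila* embryogenesis, in S2 cells and in *png50* embryos. The set was chosen by name and holds 6 genes, *pAbp*, *Pabp2*, *wisp*, *Gld2*, *orb* and *orb2*. All 6 were found in each of the 3 expression tables, among 16768 fly genes listed in all of them.

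The poly(A) tail is a main control point of maternal mRNAs. PABP (the product of *pAbp*) coats the tail in the cytoplasm and promotes both translation and stability. Pabp2 is the nuclear poly(A)-binding protein that acts when tails are first made. Wispy and Gld2 are cytoplasmic poly(A) polymerases of the GLD-2 family that lengthen the tails of stored mRNAs, Wispy in the female germline and the egg and Gld2 outside it. Orb and Orb2 are CPEB proteins, which bind a U-rich element in target mRNAs and recruit or hold off polyadenylation. Orb is known for its role in the ovary and Orb2 for its roles in the nervous system and testis.

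Each library was RNA from an input lysate or from an RNA-immunoprecipitate. *w1118* embryos, a standard laboratory strain, were collected at 0–1, 1–2, 2–3, 3–4 and 4–5 hr, and PABP was pulled down with a synthetic antibody. eGFP-ME31B embryos, from a trap line in which the endogenous *me31B* gene carries an eGFP tag, were collected at the same 5 ages, and ME31B, a DDX6-family RNA helicase that represses mRNAs, was pulled down with anti-GFP. S2 cells, a line of embryonic blood cell origin, gave a PABP pair without transfection and an ME31B pair after transfection with an eGFP-ME31B plasmid, so the tagged protein there came from a plasmid. Embryos mutant for the PNG kinase gave *png50* inputs at 0–1 and 2–3 hr and an input with its ME31B immunoprecipitate from eGFP-me31B;png50 embryos at 0–1 hr. Every condition was 1 library of pooled embryos or cells, so no difference below has a replicate check and no test could be run. The counting error that is given comes from estimated reads and covers sampling of reads alone. In such bulk samples fewer cells of a type and less RNA per cell cannot be told apart.

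The 28 libraries had estimated depths of 10.0 to 16.9 M reads (M, mega). The *w1118* inputs at 0–1 and 1–2 hr stood apart, with summed fly FPKM of 302478 and 125101 against at least 1021830 in the later *w1118* inputs and 899038 to 1089180 in the eGFP-ME31B inputs. The summed level of 4 maternal markers went from 2061 to 116 FPKM between 0–1 and 4–5 hr in eGFP-ME31B inputs, and that of 4 zygotic patterning genes from 0.702 to 22.4 FPKM. Of 5 hemocyte markers in S2 cells, *srp* was at 25.3 and 36.1 FPKM and *Pxn* at 8.42 and 12.5 FPKM. *Hml* and *Sr-CI* were below 0.5 FPKM in both inputs, and *NimC1* was listed at 0 in both. *me31B* was at 50.7 FPKM in untransfected and 1486 FPKM in transfected S2 cells. The *png* transcript was present in all *png50* inputs, so its level does not check that label.

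The 6 genes lie on 4 chromosome arms of the dm6 build. *pAbp* (FBgn0265297) is on the plus strand of chromosome arm 2R at 18140078–18147191, with 3 snoRNA genes inside it on the same strand. *Pabp2* (FBgn0005648) is on 2R at 8131431–8134374, plus strand, and overlaps *Obp44a* on the other strand; the library kit was stranded, but whether quantification used strand is not given in the sources used here. *wisp* (FBgn0260780) is on X at 11893943–11899920, plus strand, and *orb* (FBgn0004882) is on 3R at 23260610–23280856, minus strand, both without an overlapping gene. The remaining pair overlap a gene on the same strand, and how reads were split between them is not known, so their levels are uncertain. *Gld2* (FBgn0038934), on 3R at 22211824–22217415, lies within *SKIP*, which was at 47.3 FPKM in eGFP-ME31B inputs at 0–1 hr and 61.0 FPKM at 4–5 hr. *orb2* (FBgn0264307), on 3L at 8937100–8954463, overlaps *CG43783*, which went from 16.3 to 7.21 FPKM between these ages.

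**Figure D1:**
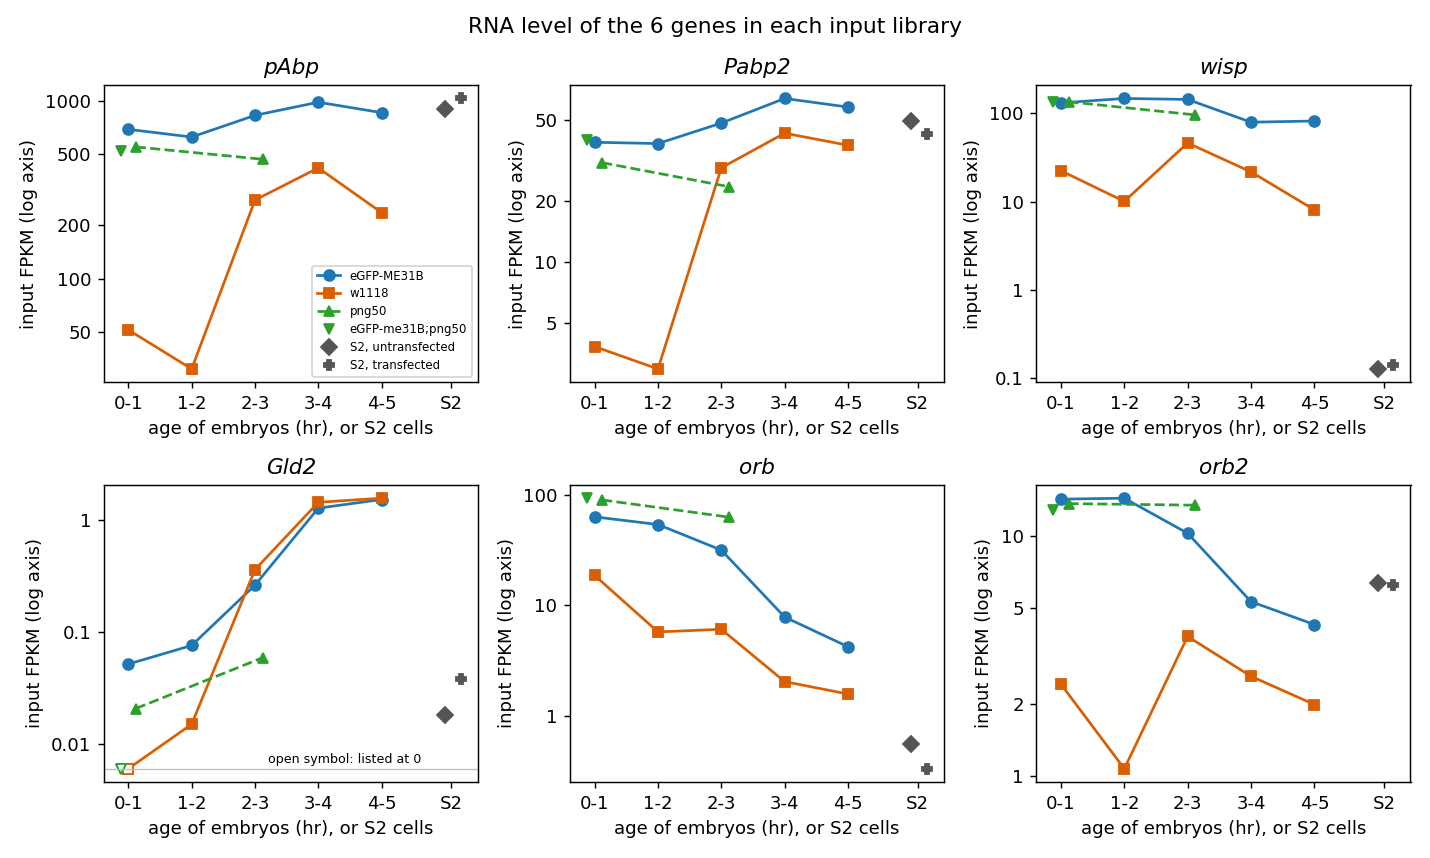
Input level of each gene in FPKM (log axis) against embryo age in hr, with S2 cells at the right. Each symbol is 1 library, and open symbols mark values listed at 0. *orb* was lower at each later age in eGFP-ME31B embryos, from 63.4 to 4.23 FPKM, *Gld2* was higher at each, from 0.0515 to 1.51 FPKM, and *wisp* was below 0.2 FPKM in S2 cells.

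*pAbp* was the most abundant of the 6 transcripts in each input. In eGFP-ME31B embryos its level was 689, 624, 826, 978 and 854 FPKM from 0–1 to 4–5 hr. In *w1118* embryos it was 51.6, 31.1, 276, 418 and 235 FPKM. Thus eGFP-ME31B embryos kept *pAbp* within a 1.57-fold range, while *w1118* embryos spanned 13.4-fold, most of it between the early pair of inputs that stood apart and the later ones. At 0–1 hr the inputs of the mutants lay near that of eGFP-ME31B embryos, at 549 FPKM in *png50* and 521 FPKM in eGFP-me31B;png50. At 2–3 hr *png50* was at 468 FPKM, 1.76-fold below eGFP-ME31B, and 12.1% of 6829 genes had a lower ratio. S2 cells held 902 FPKM untransfected and 1027 FPKM transfected.

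*Pabp2*, the nuclear counterpart, followed the same course at a lower level. It was at 38.8, 38.2, 48.2, 63.6 and 57.7 FPKM in eGFP-ME31B embryos and at 3.85, 2.99, 29.0, 43.0 and 37.5 FPKM in *w1118* embryos. In *png50* it was at 30.8 and 23.5 FPKM, in eGFP-me31B;png50 at 39.6 FPKM, and in S2 cells at 49.2 and 42.4 FPKM. The 2–3 hr *png50* level of *Pabp2* was 2.05-fold below that of eGFP-ME31B, and 7.89% of 6829 genes had a lower ratio. Both poly(A)-binding genes were highest at 3–4 hr in both embryo series. Over the 12 inputs of *w1118*, eGFP-ME31B and S2, which include the 2 early *w1118* libraries, the log2(FPKM + 1) levels of *pAbp* and *Pabp2* had a Pearson r of 0.953, as a description.

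The strains differed for this pair well beyond the typical gene at 0–1 hr. *w1118* was 13.4-fold lower than eGFP-ME31B for *pAbp* and 10.1-fold lower for *Pabp2*, where the median gene differed by a log2 of −1.64. Only 2.29% and 3.59% of 6549 genes had a lower ratio. At 4–5 hr the difference was 3.64-fold for *pAbp* and 1.54-fold for *Pabp2*. The tables were quantified separately, and strain, table and library cannot be told apart here.

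Across age, both genes were above the median gene's course in both strains. The median gene moved by 0.81 on the log2 scale from 0–1 to 4–5 hr in *w1118* and by −0.39 in eGFP-ME31B. Relative to it, *pAbp* changed by 1.37 and 0.70 and *Pabp2* by 2.47 and 0.96. Scaling to the added worm RNA put *pAbp* at 51.5% of its 0–1 hr level in *w1118*, against 455% as deposited, and at 53.1% in eGFP-ME31B, against 124%. *Pabp2* was at 110.2% and 63.7% after this scaling, so its direction in eGFP-ME31B and that of *pAbp* in both strains depend on the scale.

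*wisp* was abundant in young embryos and close to absent from S2 cells. Its levels were 131, 147, 143, 79.1 and 81.6 FPKM in eGFP-ME31B embryos and 22.3, 10.1, 46.0, 21.7 and 8.08 FPKM in *w1118* embryos. In both series the 3–4 and 4–5 hr values were below the 2–3 hr value, by 1.75-fold in eGFP-ME31B and 5.70-fold in *w1118* between 2–3 and 4–5 hr. In *png50* it was at 135 FPKM at 0–1 hr and 95.6 FPKM at 2–3 hr, and in eGFP-me31B;png50 at 134 FPKM, all close to eGFP-ME31B at 0–1 hr or between its early and late values. S2 cells held 0.128 and 0.140 FPKM, about 7 reads in each input, which is in the range where counting error dominates.

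At 4–5 hr the strains differed more for *wisp* than for nearly every other gene. The *w1118* input was 10.1-fold lower than the eGFP-ME31B input, and 0.230% of 8244 genes had a lower ratio. After scaling to worm RNA, 4.10% of the 0–1 hr level was left in *w1118* and 26.7% in eGFP-ME31B.

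*Gld2*, the other polymerase of the family, had the opposite course and was near the limit of detection in young embryos. In eGFP-ME31B embryos it was at 0.0515, 0.0755, 0.261, 1.27 and 1.51 FPKM, about 3, 4, 16, 73 and 92 reads. In *w1118* embryos it was listed at 0 at 0–1 hr and was at 0.0150, 0.359, 1.43 and 1.56 FPKM at the later ages. The level was higher at each successive age in both strains. Against a floor of 3 reads in the 0–1 hr library, the 4–5 hr *w1118* input was at least 26.1-fold higher, and in eGFP-ME31B the ratio was 29.4-fold (exact 95% counting interval 9.75 to 145). From 2–3 to 4–5 hr the ratio was 5.80-fold (3.39 to 10.6) in eGFP-ME31B and 4.34-fold (2.67 to 7.36) in *w1118*.

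In *png50* embryos *Gld2* was at or below this floor. It was listed at 0 in eGFP-me31B;png50 and was at 0.0207 and 0.0587 FPKM in *png50* at 0–1 and 2–3 hr, about 1 and 3 reads. At 2–3 hr the eGFP-ME31B input was 4.45-fold (1.27 to 23.8) and the *w1118* input 6.11-fold (1.82 to 32.0) higher than the *png50* input. In S2 cells *Gld2* was at 0.0182 and 0.0377 FPKM, no more than 2 reads in any library. *en*, a zygotic patterning gene, had the input profile most like that of *Gld2* among 7896 genes (Pearson r 0.994 over the 12 inputs), and in *png50* at 2–3 hr it was at 0.0348 FPKM.

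*orb* was lower at each successive age in eGFP-ME31B embryos, with levels of 63.4, 54.0, 31.7, 7.85 and 4.23 FPKM. In *w1118* embryos it was at 18.7, 5.76, 6.09, 2.04 and 1.58 FPKM. The last value was 15.0-fold below the first in eGFP-ME31B and 11.8-fold below it in *w1118*, placing *orb* among the 2.31% and 1.88% of genes with the most negative change. Relative to the median gene the log2 change was −3.52 in eGFP-ME31B and −4.38 in *w1118*, and scaled to worm RNA 2.86% and 0.955% of the first level was left. *orb* was thus the member with the largest decline in both strains, on each of these scales.

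In *png50* embryos *orb* was above its eGFP-ME31B level at both ages. It was at 90.2 FPKM at 0–1 hr and 63.0 FPKM at 2–3 hr, and at 93.5 FPKM in eGFP-me31B;png50. The 2–3 hr level was 69.9% of the first as deposited and 43.5% scaled to worm RNA, against 50.0% and 30.1% in eGFP-ME31B. At 2–3 hr the *png50* level was 1.99-fold that of eGFP-ME31B and 10.4-fold that of *w1118*, and at 0–1 hr it was 1.42-fold that of eGFP-ME31B. In these comparisons 83.1%, 95.7% and 81.0% of genes had a lower ratio. The median gene was itself higher in *png50* than in *w1118* at 2–3 hr, by a log2 of 0.53. S2 cells held 0.555 and 0.333 FPKM, no more than 11 reads.

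*orb2* was the CPEB gene with the higher level in S2 cells, at 6.39 and 6.25 FPKM. The overlapping *CG43783* was at 19.2 FPKM in untransfected S2 cells, and the split of reads between them is not known. *orb2* was at 14.2, 14.3, 10.2, 5.32 and 4.27 FPKM in eGFP-ME31B embryos and at 2.41, 1.07, 3.81, 2.60 and 1.98 FPKM in *w1118* embryos. In eGFP-ME31B the last value was 3.33-fold below the first, while in *w1118* it was 1.21-fold below it, within a counting half-width of 0.57 on the log2 scale. Relative to the median gene the log2 change was −1.35 in eGFP-ME31B and −1.09 in *w1118*, with 15.2% and 20.7% of genes lower. *png50* inputs held 13.6 and 13.4 FPKM and the eGFP-me31B;png50 input 12.9 FPKM, so at 2–3 hr *orb2* was 1.31-fold higher in *png50* than in eGFP-ME31B. Scaled to worm RNA, *orb2* was at 9.32% of its first level in *w1118* at 4–5 hr and at 12.9% in eGFP-ME31B.

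Counted against all genes, these courses were as follows. From 0–1 to 4–5 hr *wisp* and *orb* were at least 2-fold lower in *w1118*, 2 of 6 members where 9.83% of 9599 genes were, and *pAbp*, *Pabp2* and *Gld2* were at least 2-fold higher, 3 of 6 where 60.4% of genes were. In eGFP-ME31B *orb* and *orb2* were at least 2-fold lower, 2 of 6 where 25.2% of 9153 genes were, and *Gld2* alone was higher, where 31.6% of genes were. In *png50*, from 0–1 to 2–3 hr, none of the 5 members above 0.5 FPKM was at least 2-fold lower, where 3.19% of 7120 genes were.

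The order of the genes by FPKM, a unit per length, was *pAbp*, *wisp*, *orb*, *Pabp2*, *orb2* and *Gld2* in all 5 inputs of 0–1 hr or *png50* embryos. In S2 cells it was *pAbp*, *Pabp2*, *orb2*, *orb*, *wisp* and *Gld2*, and the last 3 there rested on 11 reads or fewer, so their order is not resolved. In eGFP-ME31B at 4–5 hr *orb* and *orb2*, at 4.23 and 4.27 FPKM, were within counting error of each other.

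Binding was measured as the ratio of immunoprecipitate to input FPKM, given as log2 with the median gene of the series set to 0. Genes had to exceed 0.5 FPKM in every library of a series, which *Gld2* did in none, *orb* did only for ME31B in embryos, and *wisp* did in embryos only. The PABP embryo series therefore held 4 of the 6 genes among 6086, the ME31B embryo series 5 among 6699, the S2 libraries 3 among 7309 and the eGFP-me31B;png50 pair 5 among 6779.

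**Figure D2:**
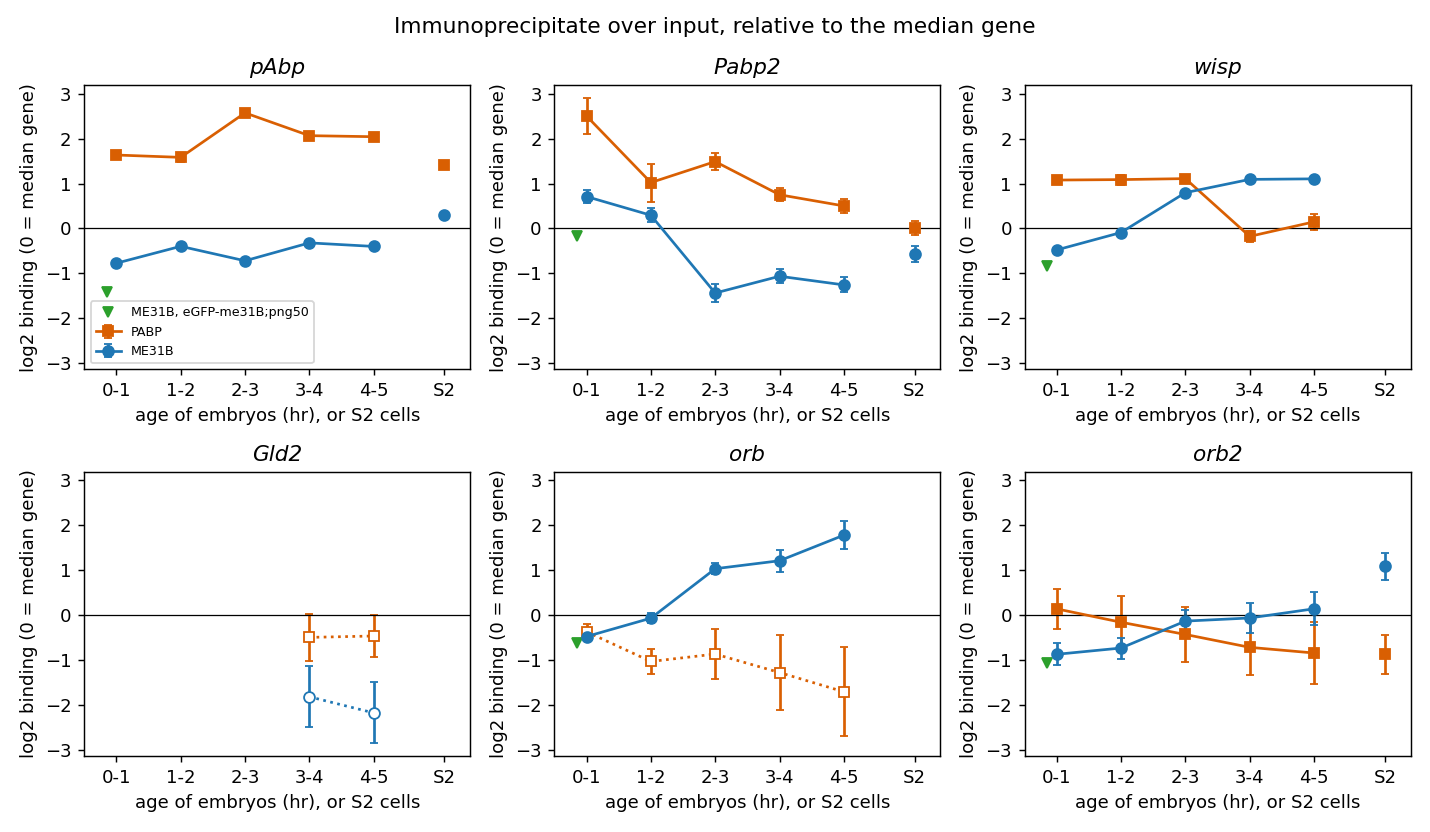
Log2 binding to PABP (squares) and ME31B (circles) against embryo age in hr, with S2 cells at the right and eGFP-me31B;png50 embryos as triangles; the line at 0 is the median gene, and bars are 95% counting half-widths. Open symbols are genes outside the filter, shown where both libraries held at least 10 estimated reads. *pAbp* stayed above 1.4 for PABP in every library pair, while *wisp* and *orb* went from below to above 0 for ME31B.

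The mRNA of *pAbp* was among the most enriched with its own protein. In the PABP immunoprecipitates it was at 404, 621, 567, 1129 and 781 FPKM from 0–1 to 4–5 hr and at 1733 FPKM in S2 cells. Its log2 PABP binding was 1.63, 1.58, 2.57, 2.07 and 2.04 in embryos and 1.41 in S2 cells, with counting half-widths of at most 0.09. These values exceeded those of 95.8% to 99.3% of genes in embryos and of 90.7% in S2 cells. *pAbp* was thus within the top 5% of genes at each embryo age with the *w1118* inputs as divisor.

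The ME31B immunoprecipitates gave the opposite side for *pAbp* in embryos. There the transcript was at 444, 491, 572, 1003 and 786 FPKM, and log2 ME31B binding was −0.77, −0.40, −0.72, −0.32 and −0.40, below the median gene at each age. In S2 cells, with 1186 FPKM in the immunoprecipitate, it was 0.31, above the median gene. In eGFP-me31B;png50 embryos, with 243 FPKM, it was −1.42, and 8.41% of genes were lower.

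*Pabp2* mRNA lost relative binding to both proteins with age. It was at 55.1, 40.4, 28.1, 46.6 and 42.9 FPKM in PABP immunoprecipitates and at 69.9, 48.6, 20.3, 39.0 and 29.3 FPKM in ME31B immunoprecipitates. Log2 PABP binding was 2.50, 1.02, 1.49, 0.75 and 0.50, and log2 ME31B binding was 0.71, 0.29, −1.44, −1.07 and −1.26. Relative to the median gene's own change, the 4–5 hr value was lower than the 0–1 hr value by a log2 difference of −2.11 for PABP, with 1.15% of genes lower, and −2.13 for ME31B, with 1.67% of genes lower. For PABP, much of the change lay between the 0–1 and 1–2 hr values, whose inputs held 52 and 47 estimated reads of *Pabp2*. In S2 cells *Pabp2* was at the median gene for PABP (0.01) and below it for ME31B (−0.57).

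*wisp* crossed the median gene for ME31B and came close to it for PABP. Its level in the PABP immunoprecipitates was 119, 142, 34.2, 12.4 and 7.23 FPKM, lower at each age from 2–3 hr on. In the ME31B immunoprecipitates it was 104, 143, 284, 216 and 213 FPKM. Between 0–1 and 4–5 hr *wisp* was thus 16.4-fold lower with PABP and 2.06-fold higher with ME31B. In binding terms, log2 PABP values were 1.08, 1.09, 1.11, −0.18 and 0.15, and log2 ME31B values were −0.48, −0.09, 0.80, 1.09 and 1.10. The step for PABP lay between 2–3 and 3–4 hr, and for ME31B between 1–2 and 2–3 hr.

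*orb* went from below to well above the median gene for ME31B. It was at 36.5, 18.8, 1.15, 0.544 and 0.391 FPKM in the PABP immunoprecipitates and at 50.2, 53.5, 74.1, 23.3 and 17.7 FPKM in the ME31B immunoprecipitates, which is 93.4-fold and 2.85-fold lower at 4–5 than at 0–1 hr. The last PABP library held about 11 reads of *orb*. Log2 ME31B binding was −0.48, −0.07, 1.03, 1.21 and 1.78, the last above 92.6% of genes, and its gain from 0–1 to 4–5 hr relative to the median gene was 2.10, above 96.7% of genes. *orb* was outside the filter for PABP, and its ratio minus the median of the genes that passed was −0.37, −1.03, −0.87, −1.28 and −1.71, with counting half-widths of 0.17 to 0.99.

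*orb2* moved in the same directions by less. It was at 6.70, 6.39, 0.974, 1.02 and 0.894 FPKM in the PABP immunoprecipitates and at 8.57, 8.96, 10.7, 6.53 and 5.72 FPKM in the ME31B immunoprecipitates. Log2 PABP binding was 0.14, −0.16, −0.43, −0.72 and −0.84, with counting half-widths of 0.44 to 0.69, and log2 ME31B binding was −0.87, −0.73, −0.13, −0.06 and 0.14, with half-widths of 0.23 to 0.37. Adjacent ages therefore did not differ beyond counting error for either protein, apart from the ME31B step between 1–2 and 2–3 hr. In S2 cells the proteins differed widely for *orb2*, which was at 2.53 FPKM in the PABP and 12.4 FPKM in the ME31B immunoprecipitate. Its log2 binding there was −0.87 for PABP and 1.09 for ME31B, the latter above 93.3% of genes, and 6.09% of genes had a lower difference between the proteins. How reads were split from the overlapping *CG43783* is not known for these libraries either.

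*Gld2* could be read only in old embryos. It was at 0.655 and 0.912 FPKM in PABP immunoprecipitates at 3–4 and 4–5 hr and at 0.462 and 0.407 FPKM in ME31B immunoprecipitates, 22 to 62 estimated reads. Its ratio minus the series median was −0.49 and −0.46 for PABP, with counting half-widths of 0.52 and 0.47, and −1.82 and −2.18 for ME31B, with half-widths of 0.67 and 0.68. *Gld2* RNA was thus on the low side for ME31B at both ages. For PABP it was below the series median by just less than the counting half-width, and that median is of genes that passed the series filter, which *Gld2* did not. Among 8550 and 8794 genes above 0.5 FPKM in both libraries compared, its PABP values were −0.67 and −0.65, below the median gene by more than the half-widths. There 23.2% and 23.7% of genes were lower.

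Set against all genes, the counts were these. At 0–1 hr 4 of 4 members that passed were above the median gene for PABP (background 50.0%), and *pAbp*, *Pabp2* and *wisp* were at least 2-fold above it, where 10.4% of genes were. *orb* was left out of this count by its level in the 4–5 hr PABP immunoprecipitate. Among 6587 genes above 0.5 FPKM in both 0–1 hr libraries it was below the median gene, at −0.35, with 36.7% of genes lower. For ME31B at 0–1 hr 1 of 5, *Pabp2*, was above the median gene (background 50.0%). At 4–5 hr only *pAbp* was at least 2-fold above for PABP, where 11.7% of genes were. For ME31B at 4–5 hr *wisp* and *orb* were at least 2-fold above, where 21.5% of genes were, and *Pabp2* was at least 2-fold below, where 20.1% were. In S2 cells 2 of 3 members were above the median gene for each protein (background 50.0% each), with *pAbp* at least 2-fold above for PABP, where 15.8% were, and *orb2* for ME31B, where 8.11% were. In eGFP-me31B;png50 embryos 0 of 5 members were above the median gene for ME31B (background 50.0%), and *pAbp* and *orb2* were at least 2-fold below it, where 14.8% of genes were.

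Since the early *w1118* inputs stood apart, the values were also computed with the input of the other strain, an alternative chosen at 1–2 hr and later after seeing the data. With the eGFP-ME31B input as divisor, log2 PABP binding of *pAbp* was −0.36, 0.54, 1.63, 1.12 and 0.60 from 0–1 to 4–5 hr, so that at 0–1 hr it was below the median gene. With the *png50* input it was −0.19 at 0–1 hr. *Pabp2* stayed above 0 for PABP at all ages under the eGFP-ME31B input (0.92, 0.62, 1.39, 0.47 and 0.30), with a smaller difference between the first and last age. *wisp* was at 0.27, 0.50, 0.10, −1.76 and −2.77 and *orb2* at −0.67, −0.62, −1.23, −1.46 and −1.52, so that at 3–4 and 4–5 hr both were lower than with the *w1118* input.

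For ME31B, the *w1118* input as divisor raised all 5 members at 0–1 hr, and 4 of 5 were then above the median gene. *pAbp* was at 1.29, 0.75, 0.41, 0.75 and 1.15 by age, on the other side of the median gene from its own-strain value at each. *wisp* went from 0.40 to 4.12 and *orb* from −0.39 to 2.89 between 0–1 and 4–5 hr, so that *wisp* gained more than *orb* with this divisor and less with the eGFP-ME31B input, and *Pabp2* went from 2.36 to −0.95. The direction of change with age for *wisp*, *orb* and *Pabp2* was the same under both divisors, while the side of the median gene on which *pAbp* fell was not.

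**Figure D3:**
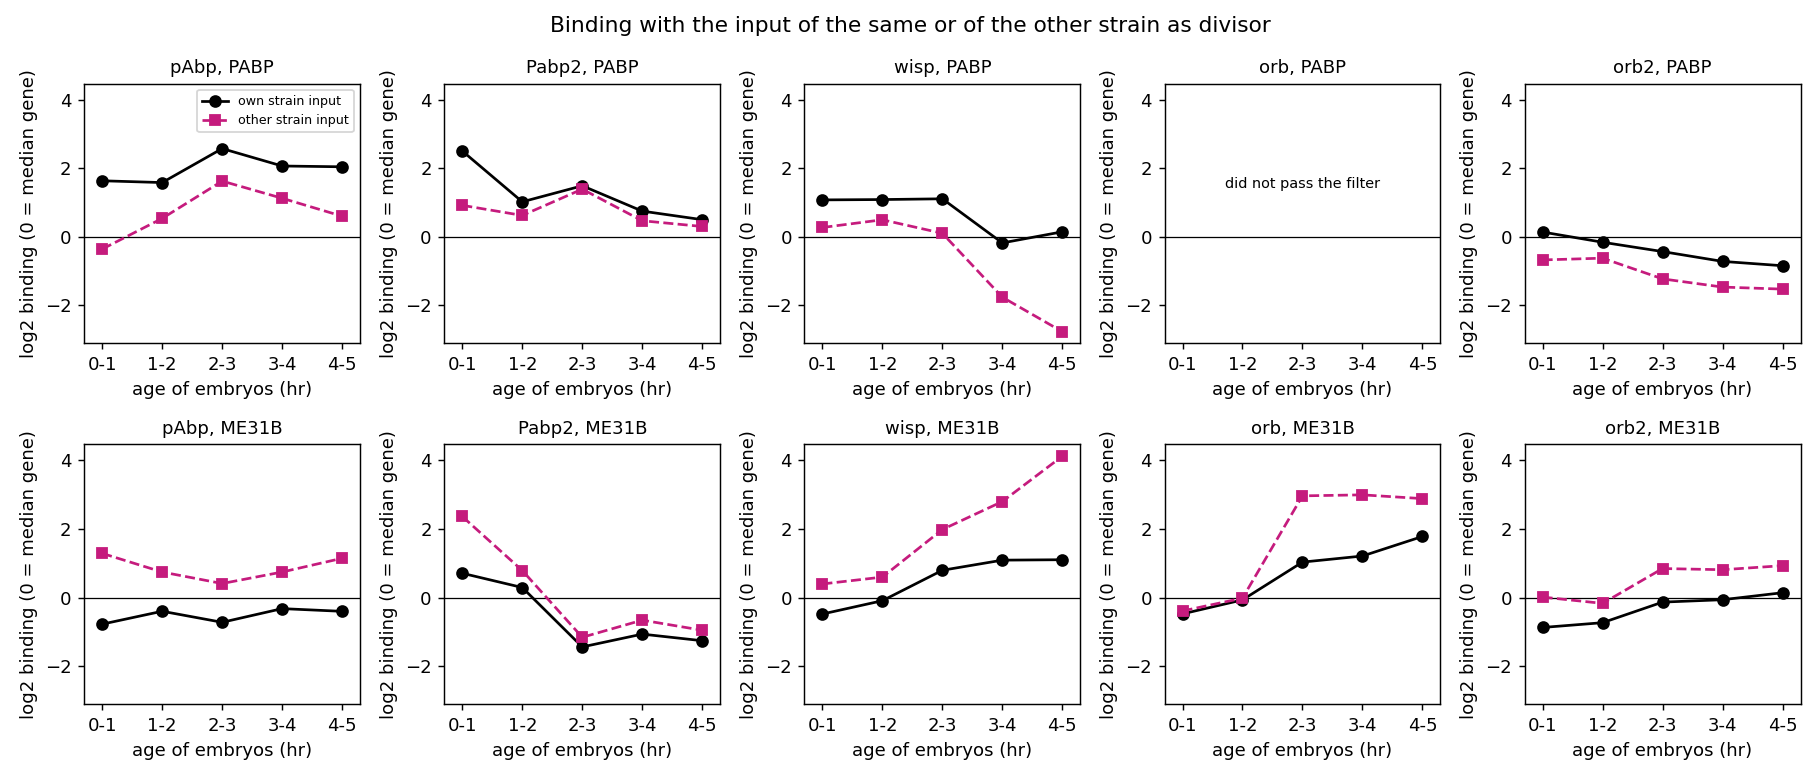
Log2 binding to PABP (upper row) and ME31B (lower row) against embryo age in hr, with the input of the same strain (circles) or of the other strain (squares) as divisor; the line at 0 is the median gene. The late ME31B values of *wisp* are above 0 under both divisors, its late PABP values are near 0 with the same-strain input and at −1.76 and −2.77 with the other, and *pAbp* changes side for ME31B at each age and for PABP at 0–1 hr.

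A comparison of the PABP with the ME31B immunoprecipitate at the same age uses no input. Relative to the median gene, the log2 ratio of PABP to ME31B FPKM for *wisp* was 0.70, 0.44, −1.23, −3.24 and −4.23 from 0–1 to 4–5 hr, and at 4–5 hr 0.992% of 8166 genes were lower. *orb* was at 0.04, −1.06, −4.19 and −4.53 from 0–1 to 3–4 hr, the last with 0.857% of 7938 genes lower, and its 0.391 FPKM at 4–5 hr did not pass the filter. *orb2* was at 0.15, −0.04, −1.63, −1.79 and −2.03. These 3 transcripts were thus near or above the median gene at 0–1 hr and on the ME31B side from 2–3 hr on. The strains of the immunoprecipitates differ, and so do their inputs. In the *w1118* input *wisp* was 10.1-fold lower than in the eGFP-ME31B input at 4–5 hr. For *orb* the input was 5.21-fold lower at 2–3 hr, 3.84-fold at 3–4 hr and 2.68-fold at 4–5 hr. For *orb2* it was 2.69-fold lower at 2–3 hr and 2.15-fold at 4–5 hr.

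The poly(A)-binding genes went the other way in that comparison. *pAbp* was at 0.37, 0.79, 1.81, 1.06 and 0.64, and *Pabp2* at 0.16, 0.18, 2.29, 1.15 and 1.20, on the PABP side at each age. In S2 cells *pAbp* was at 1.07, *Pabp2* at 0.95 and *orb2* at −1.77, the same sides as at 4–5 hr. At 0–1 hr 71.0% and 60.4% of 6742 genes were lower than *pAbp* and *Pabp2*. At the later ages 67.4% to 80.7% of genes were lower than *pAbp* and 57.2% to 87.1% lower than *Pabp2*. In S2 cells 77.1% and 74.7% were.

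**Figure D4:**
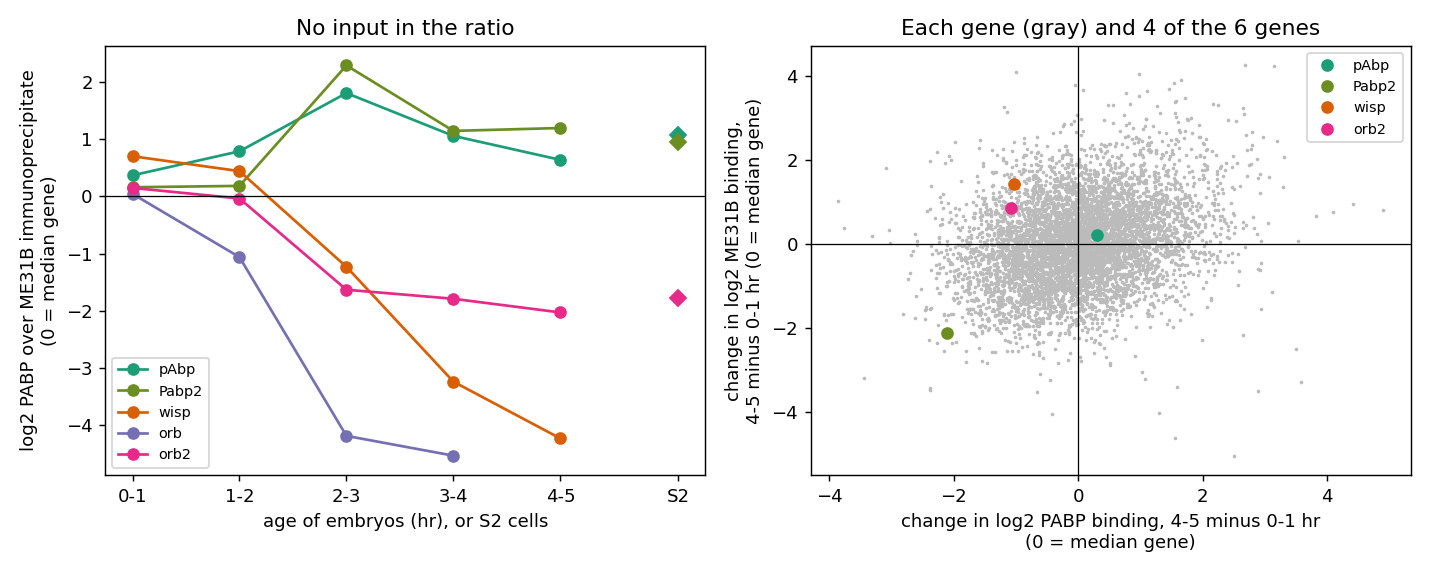
Left, log2 ratio of PABP to ME31B immunoprecipitate FPKM relative to the median gene, by embryo age in hr and in S2 cells (diamonds), 1 library each. Right, change in log2 binding from 0–1 to 4–5 hr relative to the median gene for PABP (x) and ME31B (y), with 6002 genes in gray and the 4 members that passed in color. *wisp* and *orb2* lie in the upper left quadrant with 20.1% of genes, and *Pabp2* in the lower left.

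The changes of both bindings from 0–1 to 4–5 hr can be set side by side for 4 members. Relative to the median gene, *wisp* changed by −1.03 for PABP and 1.42 for ME31B, and *orb2* by −1.09 and 0.85. *Pabp2* changed by −2.11 and −2.13, and *pAbp* by 0.30 and 0.21. Lower for PABP together with higher for ME31B was seen in 20.1% of 6002 genes, so that sign pattern alone was common. Over the same ages the share of worm RNA in the ME31B immunoprecipitates went from 0.766% to 8.35%, and that in their inputs from 0.404% to 1.17%, and their part in the result was not tested.

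Embryos mutant for PNG were compared with eGFP-ME31B embryos at 0–1 hr for ME31B. All 5 members that passed were lower in eGFP-me31B;png50. With the median gene set to 0, genes in general were as often lower as higher. The log2 difference relative to the median gene was −0.59 for *pAbp* and −0.81 for *Pabp2*, with 13.6% and 7.91% of 6498 genes lower. It was −0.30 for *wisp*, −0.09 for *orb* and −0.14 for *orb2*, with 27.4%, 42.9% and 39.0% of genes lower. The difference was within the counting half-widths of both values for *orb* (0.11 and 0.10) and for *orb2* (0.24 and 0.29). The eGFP-me31B;png50 libraries and the eGFP-ME31B libraries are in separate tables, and only the former pair holds almost no worm RNA.

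The wider pathway was read from a list of 30 further genes of nucleotidyltransferases, cleavage and polyadenylation factors, partners of PABP and associates of CPEB. Of these, 29 were tested in *w1118* inputs, of which 1 was at least 2-fold lower (background 9.83%) and 17 higher (background 60.4%) at 4–5 than at 0–1 hr, with a median log2 change of 1.13 against 1.04 for all genes. In eGFP-ME31B inputs 8 of 30 were lower (background 25.2%) and 1 higher (background 31.6%), with a median of −0.47 against −0.13. The 1 gene past 4-fold in both series was *bru1* (listed as *aret*), an RNA-binding repressor of *oskar* translation. It was at 89.0 and 8.86 FPKM in *w1118* and at 1109.7 and 36.4 FPKM in eGFP-ME31B at 0–1 and 4–5 hr. In *png50*, 0 of 30 were lower from 0–1 to 2–3 hr and 1, *BicC*, was called higher. *BicC*, which encodes an RNA-binding repressor of maternal mRNAs, was at 0.00165 and 8.17 FPKM there, and at 156 FPKM in eGFP-ME31B but 5.68e-05 FPKM in *w1118* at 0–1 hr, so its call rests on 1 near-zero value and the tables disagree on its level.

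The list holds 7 partners of PABP and other poly(A)-binding proteins. For PABP at 0–1 hr 4 of 7 were at least 2-fold above the median gene, where 10.4% of genes were, and at 4–5 hr, where 11.7% were, *Paip2* (1.97), a PABP inhibitor, and *eIF4G* (1.92), the scaffold of the cap complex, still were. For ME31B 3 of 7 at 0–1 hr and 4 of 7 at 4–5 hr (*larp*, *eIF4G*, *Unr* and *Nab2*) were at least 2-fold below it, where 18.9% and 20.1% of genes were. In S2 cells 0 of 7 were at least 2-fold above the median gene for PABP (background 15.8%), with a median of −0.07, while *larp* (1.17), *eIF4G* (1.12) and *Unr* (1.47) were at least 2-fold above it for ME31B, where 8.11% of genes were. As with *pAbp*, the PABP values rest on the *w1118* inputs, in which *eIF4G* was at 0.977 FPKM at 0–1 hr against 92.0 FPKM in eGFP-ME31B. At 4–5 hr *Paip2* was at 7.94 FPKM in *w1118* against 74.0 FPKM in eGFP-ME31B, and *eIF4G* at 9.54 against 50.4 FPKM. The median gene differed there by a log2 of −0.23. PABP values of the list were not computed with the eGFP-ME31B input. The 13 cleavage and polyadenylation factors gave another picture, with 0 of 13 at least 2-fold above and 7 of 13 at least 2-fold below the median gene for PABP at 4–5 hr, where 12.1% of genes were below.

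Genes with the most similar profiles were sought over the same 12 inputs or library pairs, as a description in which the points share libraries. By input level *pAbp* was most like *CycG* (Pearson r 0.993), *Pabp2* like *sqd* (0.982), *wisp* like *bcd* (0.993), *orb* like *CG4267* (0.998) and *orb2* like *norpA* (0.979). By binding *pAbp* was most like *Ef1alpha48D* (0.975), *Pabp2* like *akirin* (0.968) and *orb2* like *mus304* (0.921), among 5751 genes. Among the members themselves the next closest pair by input after the poly(A)-binding genes was *wisp* and *orb*, at 0.827.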

How the data were processed

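The authors describe adding worm (*C. elegans*) RNA to the RNA samples (4 of the 28 libraries hold almost none), depleted rRNA, made stranded libraries, mapped reads with STAR 2.5.2a and quantified them with Cufflinks 2.2.1 (bcl2fastq 2.17, FastQC 0.11.5 and R 3.1.2 are also named in the submitters' processing notes; builds dm6 and ce10). The deposited values are FPKM per gene and library in 3 tables quantified separately, without scaling to worm RNA. All 28 libraries were used, and 0 columns of no sample were left out.

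Input changes used FPKM as deposited and kept a gene if it reached 0.5 FPKM at some age. For binding, each gene's immunoprecipitate FPKM was divided by its input FPKM, log2-transformed and centred on the median gene, and a gene entered only if it exceeded 0.5 FPKM throughout its series. Reads were estimated from the FPKM of 1 read in single-transcript genes of at least 1500 nt, assuming fragments of 200 nt. Counting intervals are at 95% and cover read sampling only. A gene was called past 2-fold, with no p-value. The binding, percentile and depth calculations were tested on simulated data. Positions are from Ensembl release 115, in dm6 coordinates. Python 3.11.15, numpy 2.4.6, pandas 2.3.3 and matplotlib 3.10.9 were used.

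The 6 genes, the list of 30 pathway genes and the 17 markers were chosen with earlier results of these data known. Other genes were named if in a count of 5 or fewer, if past 4-fold in both embryo series, or as the gene most alike to a member by Pearson r of log2(FPKM + 1) inputs (at least 5 FPKM in 1 of them) or of binding. No promoter, protein or genome sequence was used here.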

Additional observations from a re-analysis of the deposited data

Results flagged for a closer look

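Several members moved in opposite directions in conditions measured under the same contrast. With 1 library in each condition, none of these differences was tested.

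The input course from 0–1 to 2–3 hr went down in *png50* and up in eGFP-ME31B for 3 members, on the log2 scale of FPKM as deposited. The difference, *png50* minus eGFP-ME31B, was −0.49 for *pAbp* (−0.23 against 0.26), −0.70 for *Pabp2* (−0.39 against 0.31) and −0.62 for *wisp* (−0.49 against 0.13). Scaled to worm RNA all 3 went down in both strains, to 72.0%, 74.7% and 65.7% of the first level in eGFP-ME31B and to 53.1%, 47.5% and 44.3% in *png50*. As deposited, 31.0%, 20.0% and 14.8% of genes had a lower change in *png50*, and 60.8%, 63.9% and 54.0% in eGFP-ME31B. How many of all genes went in opposite directions was not counted.

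Log2 ME31B binding lay on different sides of the median gene in S2 cells and in 0–1 hr embryos for the 3 members that passed in S2 cells. How many of all genes changed side was not counted. The difference, S2 cells minus embryos, was 1.08 for *pAbp* (0.31 against −0.77), −1.28 for *Pabp2* (−0.57 against 0.71) and 1.96 for *orb2* (1.09 against −0.87). Of 6184 genes, 75.4%, 14.9% and 87.0% had a lower difference. With the *w1118* input as divisor the 0–1 hr values were 1.29 for *pAbp*, 2.36 for *Pabp2* and 0.01 for *orb2*. *pAbp* was then on the same side as in S2 cells and *orb2* at the median gene. For PABP the same comparison gave −1.01 for *orb2* (−0.87 against 0.14), with 11.6% of 5817 genes lower. With the eGFP-ME31B input as divisor its 0–1 hr PABP value was −0.67, on the same side as in S2 cells.

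At 0–1 hr log2 ME31B binding of *Pabp2* was −0.16 in eGFP-me31B;png50 and 0.71 in eGFP-ME31B embryos, a difference of −0.87.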

How the results depend on the processing

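No paired analysis was possible because the labels give no replicate numbers and each condition is 1 library. Of 53 alternative counts of members, 38 were within 1.5 times the count reported and 15 were not, and of 248 alternative values of single genes 33 changed sign, 14 of them with another strain's input, 8 relative to *Act5C* and 3 scaled to worm RNA. The number of members at least 2-fold lower in *png50* inputs went from 0 to 3 when scaled to worm RNA. At 0–1 hr the count above the median gene for PABP went from 4 to 2 with the eGFP-ME31B input, with the *png50* input (added after seeing the data) or with at least 5 FPKM required, where fewer members remain. Relative to *Act5C* the counts are of members above *Act5C*, and with no centring of members higher in the immunoprecipitate than in the input. For ME31B at 0–1 hr the count went from 1 to 4 relative to *Act5C* and to 4 with the *w1118* input. It went to 2 when 2–3 hr was taken in place of 0–1 hr (added after seeing the data). In S2 cells the PABP count went from 2 to 1 with no centring, with a pseudocount of 0.5, with the filter on 2 libraries or with at least 5 FPKM, in each of which *Pabp2* was below 0, and the ME31B count from 2 to 1 with at least 5 FPKM. In eGFP-me31B;png50 embryos the ME31B count went from 0 to 1 with no centring, to 5 relative to *Act5C* and to 1 with the *png50* input. Of the 33, 5 were of values past 2-fold as reported, namely the *w1118* input change of *pAbp* scaled to worm RNA (−0.96), its PABP binding at 0–1 hr with the eGFP-ME31B (−0.36) or *png50* (−0.19) input, and, relative to *Act5C* in eGFP-me31B;png50, ME31B binding of *pAbp* (0.82) and *orb2* (1.18). The cause of the changes was not tested. Worm scaling was not run for libraries with almost no worm RNA. Depth limits *Gld2* before 2–3 hr and in S2 cells, *orb* in late PABP libraries and S2 cells, and *wisp* in S2 cells.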
